A study of Mus musculus with 61 samples.

Results

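B6 and the strain labelled with the number alone, here called strain-129, are the inbred mouse backgrounds that are mixed in many knockout lines. Embryonic stem cells of strain-129 origin were long used for gene targeting, and the resulting mice were bred onto B6. Liver RNA of 7 B6 libraries was set against liver RNA of 8 strain-129 libraries, 15 of the 60 libraries analysed from a study of 8 mouse strains. The libraries were chosen by the strain in their labels, and all 16165 genes that passed a filter on low counts, of 18754 in the deposited table, were tested. Both groups had the same treatment, a high-fat, high-sugar diet with 45% fat, and the labels name no transgene, deletion or drug in either. The labels give neither substrain, sex nor age. They do not state that each library came from a separate mouse, so the p-values measure the spread between libraries, which may be partly technical. The question the design poses is which liver transcripts differ between these backgrounds when neither is labelled with an engineered allele.

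Depth was 19977133 to 38245067 estimated counts per library in B6 and 23275639 to 40324361 in strain-129. The liver identity of the libraries was checked first. Albumin (Alb), in counts scaled to a common library size (CPM), had 49458 to 69913 CPM in B6 and 35108 to 69844 CPM in strain-129. The 19 core hepatocyte genes summed to 93457 to 128201 CPM in B6 and 94096 to 130109 CPM in strain-129. The strains overlapped in both. The libraries fell into separate classes by Xist, the RNA that coats the inactive X chromosome of female cells. Libraries numbered 1 to 4 had 830.5 to 1113 CPM of Xist in B6 and 894 to 1246 CPM in strain-129. Those numbered 6 to 8 in B6 had 0.246 to 7.34 CPM, and those numbered 6 to 9 in strain-129 had 1.46 to 3.07 CPM. Both strains hold both classes, so the contrast was also computed within each class, an alternative chosen after this split was seen. The ribosomal RNA gene Rn18s-rs5 took 3.63 to 7.37% of counts in B6 and 1.16 to 7.10% in strain-129, with library 1 of strain-129 the lowest.

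Some of the gene groups reported here are known as follows. Interferon-stimulated genes are switched on by STAT and IRF factors after interferon binds its receptor, and in the liver they mark both hepatocytes and resident macrophages (Kupffer cells). Cholesterol and fatty acid synthesis genes are transcribed under SREBP factors, which respond to sterols and insulin. Large liver gene families such as the major urinary proteins (Mup), the Cyp2b and Cyp2c cytochromes, the Ugt1a glucuronosyltransferases and the Serpina1 inhibitors differ between the sexes or between strains and hold near-identical copies.

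Of the 16165 genes, 2089 (12.9%) were higher and 1549 (9.58%) were lower in B6 than in strain-129 at an adjusted p under 0.05 (edgeR quasi-likelihood F test, Benjamini-Hochberg adjustment), together 22.5%. Genes that passed this threshold are described as called. Folds are log2 values, B6 minus strain-129, with their standard error. Among called genes, 1042 (6.45% of all tested) had a log2 fold change of at least 1 and 421 (2.6%) of -1 or less. The median over all genes was -0.0034. In 725 genes (4.48%) every B6 library lay above every strain-129 library, and in 610 (3.77%) every B6 library lay below. The 725 and 610 are read as a description of separation and carry no test of their own.

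Gene lists differed in how far they departed from these shares. Of 47 interferon response genes, 40 were called higher in B6 and none lower, with a median log2 fold change of 1.32. The lists of lymphocyte markers (19 of 24 higher), Kupffer cell and macrophage markers (15 of 19 higher) and interferon-inducible GTPases (14 of 18 higher) held no lower call either, and none of their members was lower at an unadjusted p under 0.05, by DESeq2 or by limma. The lists of iron and heme genes (7 of 25 lower), apolipoproteins (6 of 25 lower) and coagulation factors (4 of 21 lower) lay at the other end. No gene was called by edgeR among 19 circadian clock genes, with 1 at an unadjusted p under 0.05 and none by DESeq2 or limma. Among 11 cholangiocyte markers edgeR likewise called none, with 3 at an unadjusted p under 0.05, and DESeq2 and limma each called 2.

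**Figure D1:**
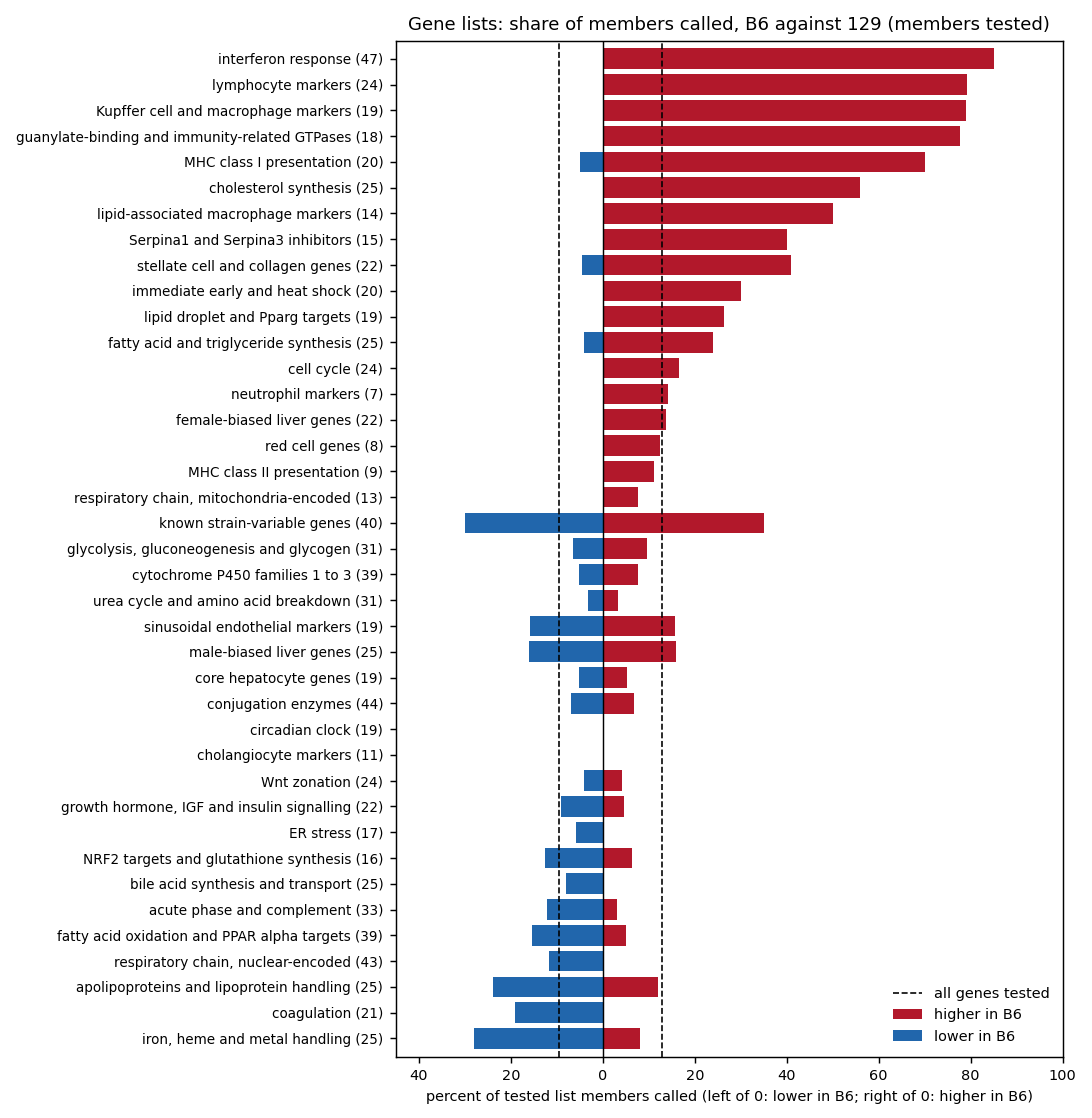
Share of tested members called in each gene list, with lower calls in B6 drawn left of 0 and higher calls right of 0; dashed lines mark 9.58% lower and 12.9% higher over all genes tested, and the number of members tested stands in parentheses. Interferon response genes and markers of lymphocytes and macrophages reach farthest to the right.

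Several immune genes were close to absent in strain-129. Gvin1, a very large interferon-inducible GTPase (chromosome 7, 106156556 to 106215326, GRCm38), had 20.9 to 89.1 CPM in B6 (median 37.8) and 0 to 1.06 CPM in strain-129 (median 0). Library 1 of strain-129 held 1.06 CPM, the other 7 rounded to 0 reads, and every B6 library lay above them all. The log2 fold change was 8.54 with an SE of 0.62 (adjusted p = 5.52e-16). Without library 1 of strain-129 the remaining 7 are at 0, which sets a difference of at least 11.76 on the log2 scale against a floor of 3 reads over the 7. Trim5, named for the primate factor that restricts retroviral capsids and also on chromosome 7, had 1.86 to 4.701 CPM in B6 libraries and 1 read in the 8 strain-129 libraries together. Pydc4, a pyrin-domain protein of the interferon-inducible cluster on chromosome 1, had 2.001 to 4.52 CPM in B6 libraries and likewise 1 read in all strain-129 libraries. No fold is given for either, since a single read carries no useful ratio.

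Other genes were strongly higher in B6 without being absent in strain-129. Nlrp12, a cytosolic sensor of the NLR family, had 25.2 to 41.5 CPM in B6 (median 32.2) and 0.234 to 1.72 CPM in strain-129 (median 0.656), with no overlap and a log2 fold change of 5.46 with an SE of 0.69 (adjusted p = 7.52e-09). Trim30d, of the Trim30 family of antiviral and signalling regulators, had 5.55 to 19.8 CPM in B6 and 0.286 to 0.597 CPM in strain-129 and a log2 fold change of 4.76 (adjusted p = 3.64e-17). Tlr12, an endosomal receptor for profilin of protozoa, had 6.73 to 31.6 CPM in B6 and 0.571 to 1.28 CPM in strain-129 (log2 fold change 4.23 ± 0.37, adjusted p = 9.07e-14). Its log2 fold change was 5.21 ± 0.28 in libraries numbered 6 to 9 and 3.19 ± 0.26 in those numbered 1 to 4, a difference that was called (adjusted p = 0.0352). Lrit1, a leucine-rich repeat protein best known from the retina, had 9.99 to 18.5 CPM in B6 and 0.349 to 0.682 CPM in strain-129 and a log2 fold change of 4.803 (adjusted p = 1.95e-19). In each of these 4 genes the lowest B6 library exceeded the highest strain-129 library.

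The reverse pattern, high in strain-129 and near 0 in B6, included Ren1, Ctse and Ifi202b. Ren1 encodes renin, the protease that starts angiotensin production, and is made mainly in the kidney. The gene (chromosome 1, 133350510 to 133360325) had 0 to 0.0948 CPM in B6 (median 0.041) and 5.57 to 29.4 CPM in strain-129 (median 9.03), with library 6 of strain-129 above the other strain-129 libraries and no overlap between strains, and the log2 fold change was -7.97 with an SE of 0.997 (adjusted p = 6.04e-09). The strain-129 genome is known to carry an additional renin gene, Ren2, which was not analysed here, and whether its reads were counted to Ren1 was not tested. Ctse, the aspartic protease cathepsin E (chromosome 1, 131638306 to 131675505), had 0.117 to 1.301 CPM in B6 (median 0.379) and 49.3 to 122 CPM in strain-129 (median 74.5), again with no overlap, and a log2 fold change of -7.17 with an SE of 0.48 (adjusted p = 3.45e-18). Ifi202b, a DNA-binding protein of the interferon-inducible p200 family, had 0 to 0.0584 CPM in B6 and 1.41 to 3.56 CPM in strain-129, and its B6 total was 5 reads. Tdg-ps, a processed pseudogene, had 1.35 to 2.25 CPM in strain-129 and 1 read over all B6 libraries.

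Smaller members of the same group followed. Gdpd3, a lysophospholipase D, had 0.14 to 0.369 CPM in B6 and 6.16 to 15.9 CPM in strain-129 and a log2 fold change of -5.25 (adjusted p = 5.14e-16). Igsf23, an immunoglobulin-superfamily protein, had 0.316 to 0.934 CPM in B6 and 6.27 to 18.6 CPM in strain-129 and a log2 fold change of -4.33 (adjusted p = 1.12e-14). Rnaset2a, a copy of the secreted ribonuclease T2, had 0 to 0.568 CPM in B6 and 9.29 to 13.6 CPM in strain-129, with library 2 of B6 far above the other B6 libraries and a log2 fold change of -6.71 (adjusted p = 4.54e-16). Asic5, a bile acid-sensitive ion channel, was lower in B6 (log2 fold change -4.07 ± 0.42, adjusted p = 2.21e-11). It had 1.95 to 2.88 CPM in B6 and 49.1 to 76.3 CPM in strain-129 in libraries numbered 6 to 9, and 1.72 to 2.54 CPM in B6 and 14.1 to 17.3 CPM in strain-129 in those numbered 1 to 4. That difference between classes was called (adjusted p = 0.0136). None of these 4 genes overlapped between strains. By the limits of at least 1 CPM in every library of one strain and at most 0.1 CPM in every library of the other, 5 genes were present in B6 alone and 4 in strain-129 alone, which include Trim5, Pydc4, Ifi202b, Ren1 and Tdg-ps, the rest being predicted genes.

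**Figure D2:**
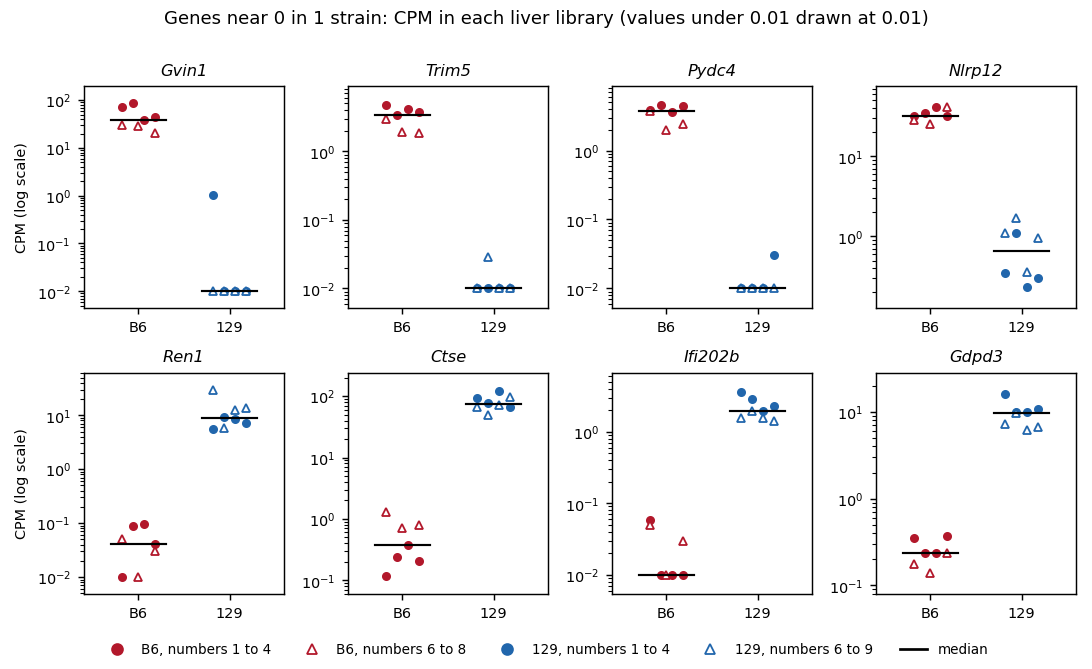
CPM on a log scale in each library for 4 genes near 0 in strain-129 (upper row) and 4 near 0 in B6 (lower row); circles are libraries numbered 1 to 4, triangles those numbered 6 to 9, bars are medians, and values under 0.01 are drawn at 0.01. No B6 point lies within the range of the strain-129 points in any panel.

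Families of near-identical genes gave some of the largest folds and the least certain ones, because reads of sister copies can be assigned to the wrong member. Among the major urinary proteins, which bind pheromones and are secreted into urine, Mup18 had 250.2 to 819 CPM in B6 (median 644) and 0.0306 to 4.85 CPM in strain-129 (median 1.46) (log2 fold change 8.51 ± 1.31, adjusted p = 8.97e-07). Mup15 had 11.7 to 875 CPM in B6 and 0 to 2.02 CPM in strain-129 (log2 fold change 8.73 ± 1.14, adjusted p = 2.05e-08), and neither overlapped between strains. Mup1 and Mup9 went the other way. Mup1 had 1.23 to 5.36 CPM in B6 and 82.4 to 313 CPM in strain-129 in libraries numbered 1 to 4, and 24.2 to 218 CPM in B6 and 5061 to 6195 CPM in strain-129 in those numbered 6 to 9 (log2 fold change -5.95 ± 1.695, adjusted p = 0.0069). Mup9 had 3.26 to 86.7 CPM in B6 and 126 to 934 CPM in strain-129 (log2 fold change -4.28 ± 0.84, adjusted p = 8.66e-05). Mup12 rested on few libraries, with 4.45 to 63.1 CPM in the B6 libraries numbered 6 to 8 and at most 0.571 CPM in the other 12. Mup21, chosen after its values were seen, had opposite directions in the classes. It had 2.84 to 5.65 CPM in B6 and 0.81 to 2.47 CPM in strain-129 in libraries numbered 1 to 4, and 52.5 to 89.6 CPM in B6 and 309.6 to 624 CPM in strain-129 in those numbered 6 to 9. The difference between the classes was called (adjusted p = 0.00193) and the pooled one was not (log2 fold change -2.81 ± 1.62, adjusted p = 0.224).

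Cyp2b9 and Cyp2b13, neighbouring cytochrome P450 genes that are known as female-biased in mouse liver, stood out in the B6 libraries numbered 1 to 4. Cyp2b9 had 511 to 594 CPM in B6 and 0 to 2.43 CPM in strain-129 there, and 11.2 to 31.6 CPM in B6 and 0.106 to 1.87 CPM in strain-129 in the libraries numbered 6 to 9. Cyp2b13 had 213 to 257 CPM in B6 and 0 to 0.725 CPM in strain-129 in libraries numbered 1 to 4, and 0.0702 to 1.32 CPM in B6 and 0 to 0.321 CPM in strain-129 in those numbered 6 to 9. The log2 fold changes were 8.71 with an SE of 1.78 (adjusted p = 0.000148) and 9.78 with an SE of 1.83 (adjusted p = 3.98e-05). That of Cyp2b13 missed the threshold in libraries numbered 6 to 9 (adjusted p = 0.0986), and the difference between classes was called (adjusted p = 0.0459). The 4 B6 libraries numbered 1 to 4 thus lay above all other 11 in both genes. The sequences upstream of their starts are printed to show how alike the copies are. They are the 250 bases before the annotated start on the plus strand (RefSeq, GRCm38.p6), chr7:26173159-26173408 for Cyp2b9 and chr7:26061245-26061494 for Cyp2b13. Of these bases 248 are equal, 99.2%, and the 2 that differ are in capitals.
Cyp2b9: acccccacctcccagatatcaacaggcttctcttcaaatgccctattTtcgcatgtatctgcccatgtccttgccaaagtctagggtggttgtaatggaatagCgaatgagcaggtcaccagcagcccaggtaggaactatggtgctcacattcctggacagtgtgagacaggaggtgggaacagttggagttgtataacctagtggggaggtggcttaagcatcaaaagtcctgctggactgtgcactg
Cyp2b13: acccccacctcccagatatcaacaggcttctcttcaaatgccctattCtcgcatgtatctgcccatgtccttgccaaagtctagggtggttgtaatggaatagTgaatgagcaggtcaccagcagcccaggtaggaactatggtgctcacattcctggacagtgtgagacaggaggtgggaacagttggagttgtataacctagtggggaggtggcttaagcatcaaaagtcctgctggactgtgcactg
A1bg, a secreted glycoprotein also known as female-biased in mouse liver, had 45.5 to 763 CPM in B6 and 3.41 to 15.2 CPM in strain-129 in libraries numbered 1 to 4 and 0.0702 to 2.49 CPM in B6 and 0 to 0.38 CPM in strain-129 in those numbered 6 to 9. Its log2 fold change was 5.67 with an SE of 1.86 (adjusted p = 0.0206), and it lost its call on the variance-stabilised values (adjusted p = 0.169) and in libraries numbered 6 to 9 (adjusted p = 0.144).

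Interferon response genes were higher in B6 almost throughout. Irf7, the transcription factor that amplifies type I interferon production, had 27.5 to 40.1 CPM in B6 (median 35.98) and 5.58 to 13.2 CPM in strain-129 (median 8.41), with no overlap and a log2 fold change of 1.98 with an SE of 0.28 (adjusted p = 1.73e-07). Usp18, which removes the ubiquitin-like modifier ISG15, had 6.39 to 11.6 CPM in B6 (median 9.26) and 1.26 to 3.85 CPM in strain-129 (median 1.99), again with no overlap (log2 fold change 2.07 ± 0.34, adjusted p = 4.61e-06). Of the oligoadenylate synthetase family, which senses double-stranded RNA, Oas3 had 1.62 to 4.91 CPM in B6 and 0.218 to 0.916 CPM in strain-129 (log2 fold change 2.74 ± 0.39, adjusted p = 2.01e-07). Oas1a had 3.51 to 9.24 CPM in B6 and 1.28 to 3.21 CPM in strain-129 (log2 fold change 1.696 ± 0.27, adjusted p = 2.37e-06). Oasl1 had 8.11 to 15.6 CPM in B6 and 1.43 to 3.45 CPM in strain-129 (log2 fold change 2.42 ± 0.36, adjusted p = 3.55e-07). Trim30a had 6.78 to 17.7 CPM in B6 and 3.05 to 6.904 CPM in strain-129 and a log2 fold change of 1.52 (adjusted p = 1.99e-07). Every B6 library exceeded every strain-129 library in 25 of the 47 genes, including Irf7, Usp18, Oas3, Oas1a and Oasl1, against 4.48% of all genes tested.

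The 7 list members that were not called were Stat2, Oas1b, Mx2, Ifi35, Ddx58, Xaf1 and Eif2ak2. Mx1, the antiviral dynamin-like GTPase whose copy in common laboratory strains is known to be defective, had 1.16 to 2.93 CPM in B6 and 0.222 to 1.07 CPM in strain-129 and a log2 fold change of 1.52 (adjusted p = 0.0059), and was called. Its neighbour Mx2 had 3.05 to 7.06 CPM in B6 and 3.26 to 5.45 CPM in strain-129 (log2 fold change 0.06 ± 0.35, adjusted p = 0.934). In libraries numbered 1 to 4, where 11.5% of all genes were called higher and 9.56% lower, 38 of the list were higher, with a median of 1.103. In those numbered 6 to 9, where 13.6% were called higher and 9.61% lower, 42 were higher, with a median of 1.34. Within libraries numbered 1 to 4 the list summed to 1433 to 1673 CPM in B6 and 909.7 to 1055 CPM in strain-129. Within those numbered 6 to 9 it summed to 1217 to 1442 CPM in B6 and 692 to 790.1 CPM in strain-129. The strains did not overlap within either class.

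The promoters of 3 of these genes are shown because they hold the core of the interferon response motif, 2 GAAA blocks parted by any 2 bases, in capitals. Each is the 150 bases before the annotated start on the gene's own strand, from RefSeq on GRCm38.p6: chr5:120777660-120777809, chr5:120907526-120907675 and chr7:104465194-104465343, all on the minus strand.
Oas3: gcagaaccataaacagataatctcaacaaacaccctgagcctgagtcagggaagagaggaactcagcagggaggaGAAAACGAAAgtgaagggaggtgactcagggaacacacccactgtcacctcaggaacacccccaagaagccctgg
Oas1a: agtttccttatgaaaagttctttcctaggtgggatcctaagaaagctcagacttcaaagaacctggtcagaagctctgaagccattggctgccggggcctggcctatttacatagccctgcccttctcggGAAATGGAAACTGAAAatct
Trim30a: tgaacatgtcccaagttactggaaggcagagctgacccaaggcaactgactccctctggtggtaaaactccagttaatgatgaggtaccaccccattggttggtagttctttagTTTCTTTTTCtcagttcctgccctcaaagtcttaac
In Oas1a the capitals mark 2 overlapping matches. In windows of 300 bases (250 before to 50 after the start, both strands), the motif occurred in 18 of the 34 list members with a promoter in the table, 52.9%, and in 1079 of all 27025 genes, 3.99%. It was present in 15 of the 29 called members and in 3 of the 5 not called, so its presence did not separate the called from the uncalled. Irf7 and Oasl1 had no match in this window. A match is a description of the letters only.

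Interferon-inducible GTPases, which attack the membranes around intracellular pathogens, were higher in 14 of 18 genes with a median of 1.35. Gbp10 had 10.8 to 53.1 CPM in B6 and 2.32 to 11.6 CPM in strain-129 (log2 fold change 2.14 ± 0.42, adjusted p = 9.67e-05). Tgtp1 had 3.72 to 27.2 CPM in B6 and 0.653 to 3.901 CPM in strain-129 (log2 fold change 2.597 ± 0.57, adjusted p = 0.000406). Irgm2, a regulator of the family, had 40.2 to 127 CPM in B6 and 12.5 to 70.4 CPM in strain-129 with library 7 of strain-129 inside the B6 range, a log2 fold change of 1.33 (adjusted p = 0.000435), and no call in libraries numbered 6 to 9 alone (adjusted p = 0.239). Of the 18, 1 was free of overlap, with B6 above, against 4.48% of all genes tested. Gbp copies are near-identical, and their individual values are uncertain.

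MHC class I genes, which present peptides to CD8 T cells, were higher in 14 of 20 and lower in 1, with a median of 0.80. Nlrc5, the factor that drives their transcription, had 24.03 to 32.4 CPM in B6 (median 26.99) and 6.92 to 16.96 CPM in strain-129 (median 12.02) and a log2 fold change of 1.17 with an SE of 0.19 (adjusted p = 2.53e-06). H2-T23, which encodes Qa-1, had 144 to 229.7 CPM in B6 and 76.1 to 127 CPM in strain-129 (log2 fold change 0.79 ± 0.13, adjusted p = 5.04e-06). H2-Q6 had 21.3 to 33.3 CPM in B6 and 4.98 to 13.9 CPM in strain-129 (log2 fold change 1.61 ± 0.26, adjusted p = 2.88e-06). H2-T10 was the member that was lower, with 1.69 to 3.07 CPM in B6 and 3.38 to 8.18 CPM in strain-129 (log2 fold change -1.14 ± 0.19, adjusted p = 3.22e-06). B6 lay above strain-129 in every library for 14 of the 20 and below for H2-T10, against 4.48% above and 3.77% below over all genes tested. In class II presentation only H2-DMb2 of 9 genes was called, with 0.456 to 1.37 CPM in B6 and 0.254 to 0.511 CPM in strain-129 (log2 fold change 1.53 ± 0.402, adjusted p = 0.00325). In libraries numbered 6 to 9, 4 of the 8 tested there were called. GRCm38, the build named in the processing notes, derives from B6, and whether strain-129 reads of these polymorphic genes were lost was not tested.

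The part of the genome with the largest share of called genes lay on chromosome 1. Among 307 bins of 5 Mb with at least 20 tested genes, the median share called was 21.2% and 2 bins held none. The bin from 170 to 175 Mb of chromosome 1 (GRCm38) held 49 called genes of 84, 58.3%, 37 of them higher and 12 lower in B6. It contains Pydc4 and Ifi202b, and, chosen after their values were seen, other genes of the p200 and SLAM clusters. Pyhin1, a p200 family member, had 2.14 to 4.55 CPM in B6 and 0.0952 to 0.39 CPM in strain-129 (log2 fold change 3.68 ± 0.43, adjusted p = 8.17e-10). Ifi204, a sensor of cytosolic DNA, had 8.78 to 16.9 CPM in B6 and 1.02 to 2.22 CPM in strain-129 (log2 fold change 3.301 ± 0.28, adjusted p = 1.81e-14). Mnda had 2.32 to 4.79 CPM in B6 and 0.286 to 0.948 CPM in strain-129 (log2 fold change 2.74 ± 0.302, adjusted p = 1.6e-10). Slamf7, a receptor of natural killer and plasma cells, had 0.456 to 2.15 CPM in B6 and 0.0704 to 0.263 CPM in strain-129 (log2 fold change 2.999 ± 0.49, adjusted p = 3.03e-06). All 4 were higher in every B6 library than in any strain-129 library, whereas Ifi202b in the same cluster had the opposite direction.

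The next 4 bins were chromosome 6 at 135 to 140 Mb (15 of 29 called, 51.7%), chromosome 15 at 30 to 35 Mb and chromosome 17 at 75 to 80 Mb (10 of 21 each, 47.6%), and chromosome 2 at 120 to 125 Mb (24 of 51, 47.1%). Among chromosomes with over 20 tested genes the share called ran between 14.0% on X and 28.2% on 14. The bins were ranked by the same calls that they summarise, so their order carries no test.

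Markers of macrophages were higher in B6. C1qa, a chain of the first complement component made by Kupffer cells, had 31.4 to 70.8 CPM in B6 (median 56.8) and 11.9 to 29.2 CPM in strain-129 (median 18.5), with no overlap and a log2 fold change of 1.48 with an SE of 0.24 (adjusted p = 3.75e-06). Vsig4, a complement receptor of Kupffer cells, had 20.6 to 57.6 CPM in B6 (median 40.5) and 9.07 to 18.8 CPM in strain-129 (median 12.2) (log2 fold change 1.57 ± 0.26, adjusted p = 3.85e-06). Cd68, a lysosomal protein of macrophages, had 8.11 to 20.2 CPM in B6 and 3.97 to 9.23 CPM in strain-129 (log2 fold change 1.34 ± 0.23, adjusted p = 9.3e-06). Folr2, a folate receptor of resident macrophages, had 7.06 to 17.7 CPM in B6 and 3.08 to 6.69 CPM in strain-129 (log2 fold change 1.38 ± 0.25, adjusted p = 2.43e-05). The strains were apart in C1qa, Vsig4 and Folr2, and overlapped in Cd68. Of the 19 markers, 15 were called higher in all libraries, in libraries numbered 1 to 4 and in those numbered 6 to 9. In 7 of the 19 every B6 library lay above every strain-129 library, against 4.48% of all genes tested.

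Genes of the lipid-associated macrophage state, seen in fatty liver and fat tissue, were higher in 7 of 14, with a median of 0.75. Clec7a, a receptor for fungal glucans, had 4.003 to 15.96 CPM in B6 (median 9.87) and 1.11 to 3.17 CPM in strain-129 (median 2.15), with no overlap (log2 fold change 2.23 ± 0.302, adjusted p = 4.79e-08). Trem2, the lipid-sensing receptor of this state, had 0.263 to 1.62 CPM in B6 and 0.0704 to 0.349 CPM in strain-129 (log2 fold change 1.88 ± 0.48, adjusted p = 0.00258). Itgax, an integrin of dendritic cells and activated macrophages, had 1.09 to 6.73 CPM in B6 and 0.508 to 2.43 CPM in strain-129 (log2 fold change 1.72 ± 0.405, adjusted p = 0.000987). Itgax was not called in libraries numbered 1 to 4 (adjusted p = 0.102), where 4 of the list were called. In bulk RNA more cells of a type and more RNA per cell cannot be told apart, here and for every marker list.

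Lymphocyte markers were called higher in 19 of 24, with a median of 1.58. Ighm, the constant region of the IgM heavy chain of B cells, had 8.77 to 34.2 CPM in B6 (median 15.02) and 1.904 to 6.42 CPM in strain-129 (median 3.49), with no overlap and a log2 fold change of 2.17 with an SE of 0.55 (adjusted p = 0.00212). Ptprc, the CD45 phosphatase of all white blood cells, had 10.9 to 39.5 CPM in B6 and 7.55 to 17.9 CPM in strain-129 and a log2 fold change of 1.16 (adjusted p = 0.0014). Il2rb, a cytokine receptor chain of natural killer and T cells, had 1.72 to 4.03 CPM in B6 and 0.254 to 1.34 CPM in strain-129 (log2 fold change 1.73 ± 0.42, adjusted p = 0.00144). Natural killer receptors were low. Klrb1c had 0.105 to 0.806 CPM in B6 and 0 to 0.0967 CPM in strain-129 (log2 fold change 3.56 ± 0.56, adjusted p = 1.3e-06), and Ncr1 had 0.0702 to 0.738 CPM in B6 and 0 to 0.117 CPM in strain-129 (log2 fold change 2.57 ± 0.64, adjusted p = 0.0018). Klrb1c lies in the natural killer complex, which is known to differ between strains. The count fell to 11 with the B6 and strain-129 libraries alone and to 10 with a replicate block, fits in which 12 of the 24 were tested. It was 12 of 24 without library 1 of B6 or without library 6 of strain-129, and 8 of 12 tested in each class of libraries. The lymphocyte markers summed to 39.4 to 74.9 CPM in B6 and 12.9 to 32.7 CPM in strain-129, with no overlap.

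Lists of other cell types held smaller shares of calls. Neutrophil markers were called higher in 1 of 7 (Csf3r), against 12.9% over all genes, although their median log2 fold change was 0.87. They summed to only 2.67 to 12.3 CPM in B6 and 0.952 to 5.39 CPM in strain-129. The 3 defining ones, Ly6g, Mpo and Camp, were not analysed here. Csf3r lost its call without any of libraries 2, 3, 4 or 6 of B6 or any of libraries 6, 7, 8 or 9 of strain-129 (adjusted p = 0.0546 to 0.0966). Collagen and stellate cell genes were higher in 9 of 22 and lower in 1. Col1a1, the main fibrillar collagen, had 10.3 to 31.7 CPM in B6 and 3.197 to 17.3 CPM in strain-129 and a log2 fold change of 1.495 (adjusted p = 0.000885). Col6a3, a microfibrillar collagen, had 18.05 to 29.3 CPM in B6 and 7.93 to 14.02 CPM in strain-129 (log2 fold change 1.22 ± 0.17, adjusted p = 4.59e-08). Col6a3 did not overlap, whereas in Col1a1 library 7 of strain-129 lay inside the B6 range. Rgs5, a pericyte signalling regulator, was lower, with 36.01 to 80.1 CPM in B6 and 69.6 to 80.5 CPM in strain-129 (log2 fold change -0.58 ± 0.13, adjusted p = 0.000401). Sinusoidal endothelial markers were split, with Lyve1, Clec4g and Cdh5 higher and Stab1, Stab2 and Wnt2 lower. Stab1 lost its call without library 1 of strain-129 (adjusted p = 0.058) and in libraries numbered 1 to 4 (adjusted p = 0.148). Wnt2 lost it without any of libraries 2 or 7 of B6 (adjusted p = 0.0529 to 0.0685) and in libraries numbered 1 to 4 (adjusted p = 0.0926). Lyve1, a hyaluronan receptor, had 7.53 to 13.4 CPM in B6 and 2.36 to 6.13 CPM in strain-129 (log2 fold change 1.48 ± 0.24, adjusted p = 2.29e-06). Stab2, a scavenger receptor, had 97.7 to 137 CPM in B6 and 133 to 167 CPM in strain-129 (log2 fold change -0.46 ± 0.12, adjusted p = 0.00436).

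The marker sums moved with the interferon result: macrophage markers summed to 606 to 1383 CPM in B6 and 372 to 753 CPM in strain-129. Their part in the difference of interferon response genes was not tested. The macrophage sums were 1022 to 1383 CPM in B6 and 473 to 753 CPM in strain-129 in libraries numbered 1 to 4. In those numbered 6 to 9 they were 606 to 842 CPM in B6 and 372 to 469.6 CPM in strain-129. Cholangiocyte marker sums overlapped, at 94.2 to 156 CPM in B6 and 87.04 to 112 CPM in strain-129. So did sinusoidal endothelial sums, at 700.1 to 881 CPM in B6 and 735 to 919 CPM in strain-129, and collagen and stellate cell sums, at 717 to 1008 CPM in B6 and 682 to 816 CPM in strain-129. No marker analysed was at 0 in all 15 libraries.

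**Figure D3:**
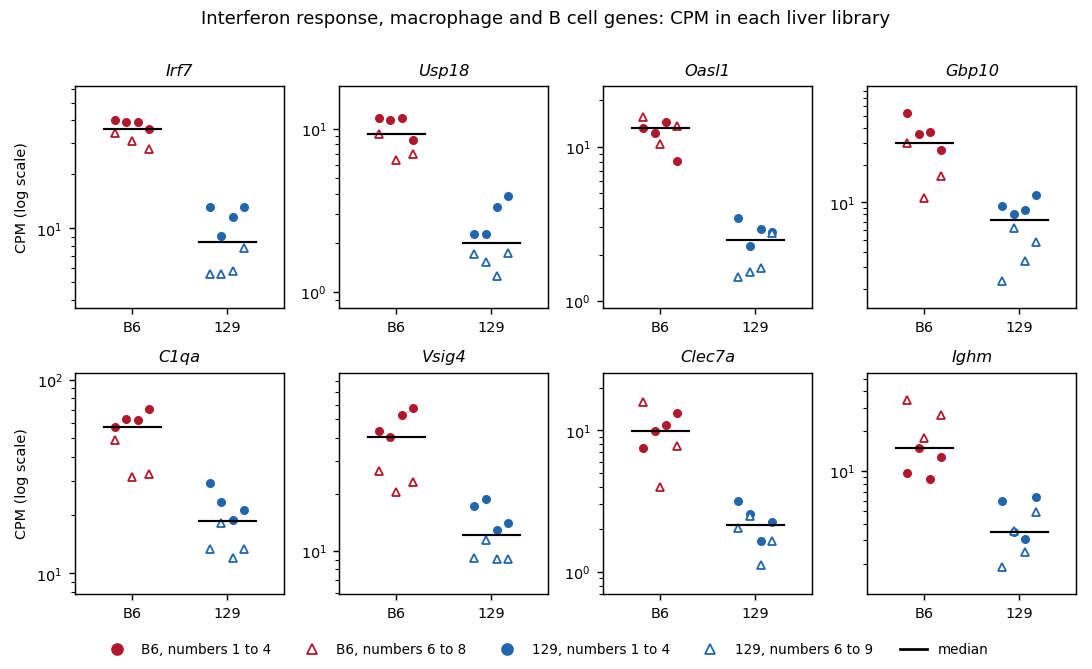
CPM on a log scale in each library for 4 interferon-related genes (upper row) and 4 immune cell genes (lower row); circles are libraries numbered 1 to 4, triangles those numbered 6 to 9, and bars are medians. In each strain the triangles tend to sit below the circles for Irf7, Usp18, C1qa and Vsig4, and the B6 points lie above the strain-129 points in all panels except Gbp10, where library 7 of B6 lies under the highest strain-129 library.

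Cholesterol synthesis genes were higher in 14 of 25 with none lower, a median of 0.91, and the count differed between the classes of library. Hmgcs1, which condenses acetoacetyl-CoA and acetyl-CoA early in the pathway, had 88.9 to 636 CPM in B6 (median 246) and 36.02 to 91.1 CPM in strain-129 (median 60.2) and a log2 fold change of 2.31 with an SE of 0.37 (adjusted p = 1.76e-06). Only library 2 of B6, with 88.9 CPM, lay under the highest strain-129 library. Sc5d, a late desaturase, had 275 to 558 CPM in B6 and 95.8 to 279 CPM in strain-129 (log2 fold change 1.24 ± 0.29, adjusted p = 0.000951). In libraries numbered 1 to 4, 4 of the genes were called higher with a median of 0.34, and in those numbered 6 to 9, 23 were called higher with a median of 1.63. Without library 6 of B6 the pooled count was 9.

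In libraries numbered 6 to 9 the gap was wide. Fdft1, squalene synthase, had 90.02 to 125 CPM in B6 and 31.1 to 38.9 CPM in strain-129 there, and 39.7 to 56.6 CPM in B6 and 26.6 to 43.4 CPM in strain-129 in libraries numbered 1 to 4, where it was not called (adjusted p = 0.105). Acat2, a cytosolic thiolase and an added example chosen after its values were seen, had 99.2 to 128 CPM in B6 and 32.01 to 39.4 CPM in strain-129 in libraries numbered 6 to 9, and 32.7 to 49.95 CPM in B6 and 28.6 to 46.4 CPM in strain-129 in those numbered 1 to 4. The difference between the classes was called for 2 of the 25 list members, Fdft1 (adjusted p = 0.0352) and Acat2 (adjusted p = 0.0119). Pooled, the log2 fold changes were 1.07 (adjusted p = 0.00476) and 0.91 (adjusted p = 0.00893), and Acat2 lost its call with a replicate block (adjusted p = 0.0655), without library 6 of B6 (adjusted p = 0.0537) and in libraries numbered 1 to 4 (adjusted p = 0.661). In libraries numbered 6 to 9 the list summed to 4135 to 5221 CPM in B6 and 1601 to 1888 CPM in strain-129, with no overlap. In libraries numbered 1 to 4 it summed to 1980.2 to 2817 CPM in B6 and 1225 to 2256 CPM in strain-129, with overlap.

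The promoter of Hmgcs1 is shown because it was the only one of the 17 list members with a promoter in the table (5.88%) to hold the sterol response motif TCACNCCAC, which occurred in 388 of 27025 genes (1.44%). The 150 bases before the start are chr13:119690201-119690350 (plus strand, GRCm38.p6, RefSeq), with the motif in capitals.
Hmgcs1: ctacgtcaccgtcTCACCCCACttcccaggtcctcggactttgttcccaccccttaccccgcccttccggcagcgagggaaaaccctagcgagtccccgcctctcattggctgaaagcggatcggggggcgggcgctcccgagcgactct
The absence of these letters from the other 16 says nothing of the factor there. The motif was not particular to this list, since it also occurred in 3 of 29 fatty acid oxidation genes with a promoter (10.3%).

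Counts of fatty acid and triglyceride synthesis genes also differed between the classes, but the test of the difference itself called 0 of the 25 genes. Scd1, the desaturase that makes oleate, had 7091 to 27394 CPM in B6 (median 15765) and 2194 to 12462 CPM in strain-129 (median 5512) and a log2 fold change of 1.53 with an SE of 0.46 (adjusted p = 0.0102), with no call in libraries numbered 1 to 4 (adjusted p = 0.285). Fads2, a desaturase of polyunsaturated fatty acids, had 442 to 907 CPM in B6 and 219 to 398 CPM in strain-129 (log2 fold change 1.09 ± 0.304, adjusted p = 0.00559), with no overlap. Fasn, fatty acid synthase, had 1316 to 2349 CPM in B6 and 219 to 491 CPM in strain-129 in libraries numbered 6 to 9 and 554 to 1149 CPM in B6 and 241 to 1112 CPM in strain-129 in those numbered 1 to 4. Its pooled log2 fold change of 1.25 (adjusted p = 0.0345) lost its call with a replicate block (adjusted p = 0.0555), in libraries numbered 1 to 4 (adjusted p = 0.768) and without any of libraries 6 or 8 of B6 or any of libraries 3, 4, 6, 7, 8 or 9 of strain-129 (adjusted p = 0.0523 to 0.106). Acacb, the mitochondrial acetyl-CoA carboxylase, had 118 to 428 CPM in B6 and 33.9 to 261 CPM in strain-129 (log2 fold change 1.27 ± 0.403, adjusted p = 0.0162), with no call under the block (adjusted p = 0.0724) or in libraries numbered 1 to 4 (adjusted p = 0.651). Of 25 genes, 6 were called higher and 1 lower in all libraries, 2 and 1 in libraries numbered 1 to 4, and 14 and none in those numbered 6 to 9. The lower gene was Lpin1, a phosphatidate phosphatase, with 97.8 to 333 CPM in B6 and 59.1 to 949.97 CPM in strain-129 (log2 fold change -1.22 ± 0.41, adjusted p = 0.023), whose call was lost with the B6 and strain-129 libraries alone (adjusted p = 0.0701), on the variance-stabilised values (adjusted p = 0.0801), with the block (adjusted p = 0.282), without library 6 of strain-129 (adjusted p = 0.118) and in each class alone.

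Pparg and lipid droplet genes differed in the libraries numbered 6 to 9. Of 19 droplet genes and Pparg targets 5 were higher in all libraries (3 without library 7 of B6), 1 was higher and 2 lower in libraries numbered 1 to 4, and 8 were higher and 1 lower in those numbered 6 to 9. The difference between the classes was called for 2 of the 19, Pparg and Cidec. Pparg, the adipogenic nuclear receptor that is induced in fatty liver, had 14.1 to 21.4 CPM in B6 and 2.83 to 4.38 CPM in strain-129 in libraries numbered 6 to 9 and 5.11 to 9.06 CPM in B6 and 5.96 to 9.12 CPM in strain-129 in those numbered 1 to 4 (adjusted p = 0.00253 for the difference). Cidec, a protein that enlarges lipid droplets, had 11.7 to 40.9 CPM in B6 and 0.411 to 1.29 CPM in strain-129 in libraries numbered 6 to 9, and 0.35 to 1.66 CPM in B6 and 0.599 to 1.01 CPM in strain-129 in those numbered 1 to 4 (adjusted p = 0.0136). Pooled, the log2 fold changes were 1.07 (adjusted p = 0.0367) and 3.802 (adjusted p = 0.000127), and both lost their call with a replicate block (adjusted p = 0.119 and 0.067). Pparg also lost it without any of libraries 6, 7 or 8 of B6 or any of libraries 6, 7, 8 or 9 of strain-129 (adjusted p = 0.0608 to 0.126). Fitm1, which promotes droplet formation, had 1.898 to 30.7 CPM in B6 and 0.458 to 7.14 CPM in strain-129 and was called in both classes. Cfd, adipsin, a marker of fat tissue, had 4.49 to 17.6 CPM in the B6 libraries numbered 6 to 8 and at most 0.104 CPM in the other 12. Of a list of 18 fat tissue and pancreas genes 3 were tested, and Cfd was the only 1 called. At an unadjusted p under 0.05, 1 was lower. In libraries numbered 6 to 9 alone, 2 were tested, with 0 called higher and 1 lower. The fat markers Adipoq, Lep, Retn and Plin1 were not analysed here.

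**Figure D4:**
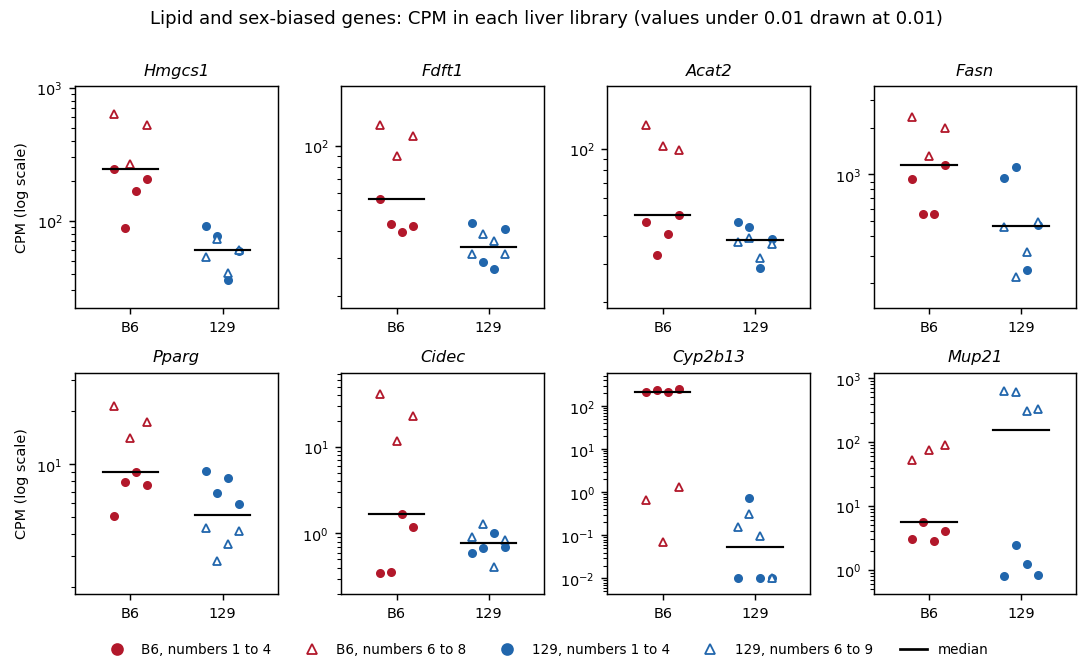
CPM on a log scale in each library for 6 lipid genes and 2 members of sex-biased families; circles are libraries numbered 1 to 4, triangles those numbered 6 to 9, bars are medians, and values under 0.01 are drawn at 0.01. The 3 B6 triangles stand above the strain-129 triangles for all 6 lipid genes, while the circles of the strains overlap in each of them.

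Fatty acid oxidation genes went mildly the other way in libraries numbered 1 to 4. Acadm, medium-chain acyl-CoA dehydrogenase, had 276 to 365 CPM in B6 (median 326) and 444 to 597 CPM in strain-129 (median 482), with no overlap and a log2 fold change of -0.65 with an SE of 0.17 (adjusted p = 0.0034). Acadvl, the very-long-chain enzyme, had 305 to 370.02 CPM in B6 and 401 to 459 CPM in strain-129 (log2 fold change -0.33 ± 0.07, adjusted p = 0.000565), also with no overlap. Angptl4, an inhibitor of lipoprotein lipase that responds to PPAR alpha, had 52.6 to 109.8 CPM in B6 and 94.3 to 177 CPM in strain-129 (log2 fold change -0.66 ± 0.195, adjusted p = 0.01). Of 39 genes, 6 were lower and 2 higher, whereas 5 were lower and 9 higher in libraries numbered 6 to 9. The difference between the classes was called for 1 of the 39. The lower count was 11 with a replicate block, 12 in libraries numbered 1 to 4, and 3 without library 1 or without library 4 of B6. The PPAR response motif, 2 AGGTCA blocks parted by any 1 base, occurred in none of 29 list promoters and in 13 of 27025 genes (0.0481%).

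Enzymes of drug and steroid metabolism differed gene by gene. Of 39 cytochromes of families 1 to 3, 3 were higher (7.69%) and 2 lower (5.13%), under the 12.9% and 9.58% over all genes. With a replicate block 8 were higher and 7 lower. Counts were 8 higher and 5 lower in libraries numbered 1 to 4, and in those numbered 6 to 9, 9 were higher and 11 lower. Cyp2c39, a retinoic acid hydroxylase, had 3.27 to 12.4 CPM in B6 (median 9.12) and 84.97 to 933 CPM in strain-129 (median 479), with no overlap and a log2 fold change of -5.87 with an SE of 1.25 (adjusted p = 0.000283). Cyp1a2, which oxidises caffeine and aromatic amines, had 123 to 303 CPM in B6 and 306 to 927 CPM in strain-129 (log2 fold change -1.27 ± 0.46, adjusted p = 0.0368), a call lost without any of libraries 1, 3, 6 or 8 of B6 or any of libraries 6, 7, 8 or 9 of strain-129 (adjusted p = 0.0528 to 0.0823), on the variance-stabilised values (adjusted p = 0.074) and in libraries numbered 1 to 4 (adjusted p = 0.128). Cyp7b1, the oxysterol hydroxylase of the acidic bile acid pathway, had 21.9 to 112 CPM in B6 and 17.6 to 683 CPM in strain-129 (log2 fold change -2.17 ± 0.75, adjusted p = 0.0291) and lost its call without any of libraries 1, 2, 3 or 4 of B6 or any of libraries 7 or 8 of strain-129 (adjusted p = 0.052 to 0.0983), on the variance-stabilised values (adjusted p = 0.178) and in libraries numbered 1 to 4 (adjusted p = 0.311). Fgfr4, the receptor through which intestinal FGF15 represses bile acid synthesis, had 30.1 to 45.4 CPM in B6 and 48.7 to 67.04 CPM in strain-129 (log2 fold change -0.67 ± 0.13, adjusted p = 5.7e-05), with no overlap.

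Among conjugating enzymes, 3 of 44 were higher and 3 lower, 6.82% each and under the 12.9% and 9.58% over all genes. With a replicate block 6 were higher and 8 lower. Within libraries numbered 1 to 4, 6 were higher and 9 lower, and in those numbered 6 to 9, 9 were higher and 6 lower. The Ugt1a enzymes attach glucuronic acid and are made from alternative first exons spliced to shared exons, so their counts can trade reads. Ugt1a9 had 30.1 to 72.4 CPM in B6 (median 52.2) and 194 to 300.5 CPM in strain-129 (median 254) and a log2 fold change of -2.34 with an SE of 0.29 (adjusted p = 6.23e-09). Ugt1a7c had 1.74 to 4.95 CPM in B6 and 25.7 to 41.5 CPM in strain-129 (log2 fold change -3.24 ± 0.27, adjusted p = 1.26e-14). Ugt1a5 and Ugt1a6a had the opposite sign. Ugt1a5 had 62.5 to 126 CPM in B6 and 3.96 to 38.7 CPM in strain-129 (log2 fold change 2.63 ± 0.68, adjusted p = 0.003). Ugt1a6a had 51.1 to 95.5 CPM in B6 and 26.9 to 50.6 CPM in strain-129 (log2 fold change 1.04 ± 0.22, adjusted p = 0.00017). None of these 4 overlapped between strains. Sult1e1, estrogen sulfotransferase, had 0.292 to 5.82 CPM in B6 and 24.5 to 114 CPM in strain-129 (log2 fold change -4.77 ± 0.57, adjusted p = 1.66e-09).

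Apolipoproteins and lipoprotein proteins were lower in 6 of 25 and higher in 3. Apoa4, an apolipoprotein that rises with hepatic fat, had 349.7 to 2869.6 CPM in B6 (median 1039) and 2008 to 4037 CPM in strain-129 (median 3133) and a log2 fold change of -1.27 with an SE of 0.39 (adjusted p = 0.012), and was not called in libraries numbered 6 to 9 (adjusted p = 0.267). Apoc3, an inhibitor of triglyceride clearance, had 607 to 845 CPM in B6 and 900.1 to 1104 CPM in strain-129 (log2 fold change -0.44 ± 0.12, adjusted p = 0.00653). Apoh had 1259 to 1466 CPM in B6 and 1739 to 2034 CPM in strain-129 (log2 fold change -0.42 ± 0.09, adjusted p = 0.000253). Both were free of overlap. Scarb1, the HDL receptor, had 112 to 242 CPM in B6 and 211 to 349 CPM in strain-129 (log2 fold change -0.73 ± 0.17, adjusted p = 0.00102), with no call in libraries numbered 1 to 4 (adjusted p = 0.105). Pltp, the phospholipid transfer protein, was higher, with 32.2 to 158 CPM in B6 and 12.3 to 29.1 CPM in strain-129 (log2 fold change 2.22 ± 0.39, adjusted p = 1.55e-05). Its log2 fold change was 3.18 ± 0.25 in libraries numbered 6 to 9 and 1.32 ± 0.23 in those numbered 1 to 4, a difference that was called (adjusted p = 0.0316). Apoa2, an HDL protein with known alleles between strains, had 2149.8 to 2719 CPM in B6 and 2617 to 3115 CPM in strain-129 (log2 fold change -0.17 ± 0.14, adjusted p = 0.428) and was called in libraries numbered 1 to 4 alone (adjusted p = 0.0456). The lower count of this list was 10 with a replicate block, 10 in libraries numbered 1 to 4 and 8 in those numbered 6 to 9.

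Secreted plasma proteins showed members of one family in opposite directions. Mug2 and Mug1 encode murinoglobulins, protease inhibitors of plasma. Mug2 had 576 to 1269 CPM in B6 (median 853) and 48.1 to 154 CPM in strain-129 (median 90.3) and a log2 fold change of 3.26 with an SE of 0.27 (adjusted p = 1.98e-14). Mug1 had 2000.04 to 4731 CPM in B6 (median 2430.2) and 3541 to 10196 CPM in strain-129 (median 6421) and a log2 fold change of -1.23 with an SE of 0.43 (adjusted p = 0.0319). Mug2 did not overlap, while Mug1 did, and lost its call on the variance-stabilised values (adjusted p = 0.0513) and without any of libraries 1, 2, 3, 4 or 6 of B6 or any of libraries 6, 7 or 8 of strain-129 (adjusted p = 0.052 to 0.0626). The Serpina1 genes encode alpha-1-antitrypsins. Serpina1d had 1890.2 to 3302 CPM in B6 and 234 to 1147 CPM in strain-129 (log2 fold change 2.15 ± 0.33, adjusted p = 1.15e-06). Serpina1a had 2376 to 3667 CPM in B6 and 1276 to 1907 CPM in strain-129 (log2 fold change 0.86 ± 0.21, adjusted p = 0.00137). Serpina1e had 23.4 to 1402 CPM in B6 and 1.02 to 20.6 CPM in strain-129 (log2 fold change 6.08 ± 1.07, adjusted p = 1.29e-05). Serpina3m, of the antichymotrypsin group, had 233 to 458 CPM in B6 and 35.1 to 197 CPM in strain-129 (log2 fold change 1.702 ± 0.37, adjusted p = 0.000318). In all 4 the lowest B6 library exceeded the highest strain-129 library, and 6 of the 15 Serpina1 and Serpina3 genes were higher with none lower by edgeR, DESeq2 or limma and 1 lower at an unadjusted p under 0.05. The counts were 6 higher and 3 lower in libraries numbered 6 to 9, where 10 of the 15 were tested. These copies are near-identical, so the split between them is uncertain.

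Coagulation factors were lower in 4 of 21, F10, F11, Proc and Hrg, and edgeR called none higher, with 1 at an unadjusted p under 0.05, none by DESeq2 and 1 by limma. F11, factor XI, had 38.3 to 68.3 CPM in B6 and 74.3 to 128.7 CPM in strain-129 (log2 fold change -0.99 ± 0.200, adjusted p = 0.000132). Hrg, histidine-rich glycoprotein, had 672 to 930.02 CPM in B6 and 1069 to 1159 CPM in strain-129 (log2 fold change -0.45 ± 0.12, adjusted p = 0.00381), both with no overlap. The lower count was 7 with a replicate block, 2 without library 6 of B6 and 9 in libraries numbered 6 to 9, where 2 were higher. Of 33 acute phase and complement genes 4 were lower, 12.1% against 9.58% over all genes, and 1 was higher. The lower count was 9 under the block, 7 in libraries numbered 1 to 4 and 8 in those numbered 6 to 9. Orm3, an orosomucoid, had 1.11 to 4.098 CPM in B6 and 4.67 to 17.7 CPM in strain-129 (log2 fold change -2.35 ± 0.59, adjusted p = 0.00219). Apcs, serum amyloid P, had 39.1 to 113 CPM in B6 and 145 to 482 CPM in strain-129 (log2 fold change -1.81 ± 0.54, adjusted p = 0.0103), with no overlap in either. Hc, complement C5, had 857 to 997 CPM in B6 and 1045 to 1381 CPM in strain-129 and was not called (log2 fold change -0.31 ± 0.16, adjusted p = 0.175), but was called with the B6 and strain-129 libraries alone (adjusted p = 0.00532), with the block (adjusted p = 0.0155) and in libraries numbered 1 to 4 (adjusted p = 0.0185).

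Heme and iron genes were lower in 7 of 25 and higher in 2. The lower count was 4 in libraries numbered 6 to 9, and the higher count was 4 with a replicate block. Alad, the second enzyme of heme synthesis, whose gene is known to be duplicated in some strains, had 64.9 to 84.2 CPM in B6 (median 73.1) and 131 to 186 CPM in strain-129 (median 153), with no overlap and a log2 fold change of -1.08 with an SE of 0.16 (adjusted p = 3.87e-07). Cpox, a later enzyme of the same path, had 73.3 to 136 CPM in B6 and 145 to 222 CPM in strain-129 (log2 fold change -0.67 ± 0.16, adjusted p = 0.00104). The strains were apart in both. Hfe, the hemochromatosis protein, was higher, with 34.2 to 47.6 CPM in B6 and 20.96 to 30.5 CPM in strain-129 (log2 fold change 0.65 ± 0.09, adjusted p = 3.88e-08), also apart. Of the hormone genes, Insr, the insulin receptor, had 179.5 to 243 CPM in B6 and 128.9 to 159 CPM in strain-129 (log2 fold change 0.58 ± 0.07, adjusted p = 7.46e-09). Igfbp3, the main carrier of IGF1 in plasma, had 15.3 to 28.5 CPM in B6 and 40.7 to 51.96 CPM in strain-129 (log2 fold change -1.33 ± 0.21, adjusted p = 1.46e-06). Ahcy, which hydrolyses S-adenosylhomocysteine in the methionine cycle, had 1080.1 to 2264 CPM in B6 (median 1457) and 435 to 678 CPM in strain-129 (median 497) and a log2 fold change of 1.63 with an SE of 0.197 (adjusted p = 2.44e-09). None of these 3 overlapped between strains.

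**Figure D5:**
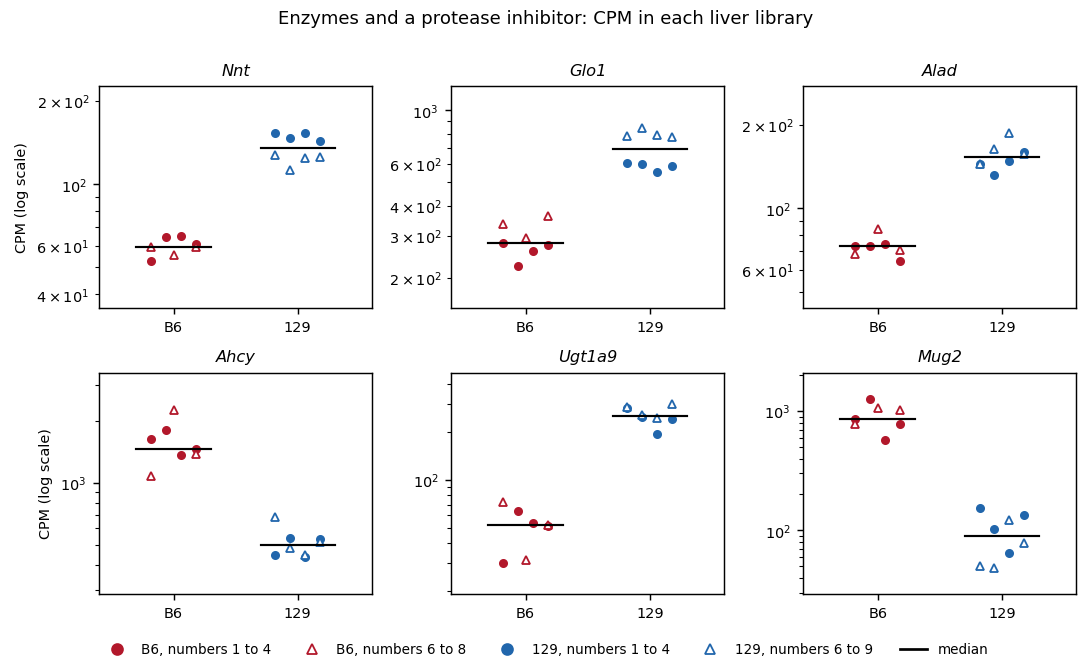
CPM on a log scale in each library for 5 enzymes and the protease inhibitor Mug2; circles are libraries numbered 1 to 4, triangles those numbered 6 to 9, and bars are medians. The strains are apart in every panel, with B6 lower for Nnt, Glo1, Alad and Ugt1a9 and higher for Ahcy and Mug2.

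A list of 40 genes known to vary between mouse strains, which was drawn up with earlier results of these data known, held 14 higher and 12 lower genes. Nnt, the mitochondrial transhydrogenase that makes NADPH, is known to lack exons in the substrain C57BL/6J. It had 52.8 to 65.2 CPM in B6 (median 59.5) and 113 to 154 CPM in strain-129 (median 135), with no overlap and a log2 fold change of -1.19 with an SE of 0.19 (adjusted p = 1.58e-06), and its counts over the gene do not show which exons were read. Glo1, glyoxalase, which lies in a segment known to be duplicated in some strains, had 224 to 361 CPM in B6 (median 279) and 553 to 845 CPM in strain-129 (median 688) and -1.26 with an SE of 0.19 (adjusted p = 3.43e-07). Wdfy1, an endosomal adaptor, had 10.1 to 12.6 CPM in B6 and 24.4 to 27.96 CPM in strain-129 (log2 fold change -1.17 ± 0.07, adjusted p = 1.95e-19). Fam213b, a prostamide synthase, had 3.37 to 4.503 CPM in B6 and 15.4 to 27.8 CPM in strain-129 (log2 fold change -2.41 ± 0.24, adjusted p = 8.35e-12). All 4 were lower in every B6 library than in any strain-129 library.

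The members of that list called higher included sensors and caspases of innate immunity. Raet1d, a ligand of the NKG2D receptor, had 7.300 to 34.7 CPM in B6 and 0.825 to 2.45 CPM in strain-129 (log2 fold change 3.63 ± 0.37, adjusted p = 1.19e-11). Naip5, the flagellin sensor that sets resistance to Legionella, had 2.88 to 6.64 CPM in B6 and 0.943 to 2.56 CPM in strain-129 (log2 fold change 1.63 ± 0.25, adjusted p = 9.5e-07). Naip1 had 0.667 to 2.17 CPM in B6 and 0.145 to 0.725 CPM in strain-129 (log2 fold change 1.55 ± 0.47, adjusted p = 0.0116). Nlrp1b, the sensor of anthrax lethal toxin, had 1.02 to 1.72 CPM in B6 and 0.381 to 1.16 CPM in strain-129 (log2 fold change 1.16 ± 0.39, adjusted p = 0.0241). Inflammatory caspases lie together on chromosome 9. Casp1 had 1.83 to 3.89 CPM in B6 and 0.894 to 1.87 CPM in strain-129 (log2 fold change 1.21 ± 0.24, adjusted p = 0.000125). Casp4 had 0.959 to 2.91 CPM in B6 and 0.508 to 1.05 CPM in strain-129 (log2 fold change 1.07 ± 0.303, adjusted p = 0.00653). Casp12 had 1.51 to 2.38 CPM in B6 and 0.832 to 1.68 CPM in strain-129 (log2 fold change 0.81 ± 0.28, adjusted p = 0.03). The strain-129 strain is known to carry a loss-of-function allele of Casp4, and in libraries numbered 6 to 9 its difference was not called (adjusted p = 0.26). Casp12 lost its call on the variance-stabilised values (adjusted p = 0.0636) and without any of libraries 4 or 8 of B6 or any of libraries 3, 6, 7 or 8 of strain-129 (adjusted p = 0.0508 to 0.0604). Tlr4, the receptor for endotoxin, had 2.49 to 5.41 CPM in B6 and 1.76 to 3.07 CPM in strain-129 (log2 fold change 0.72 ± 0.204, adjusted p = 0.00689), with no call in libraries numbered 6 to 9 (adjusted p = 0.134). Entpd4, a Golgi nucleotidase, had 14.1 to 19.96 CPM in B6 and 7.22 to 13.3 CPM in strain-129 (log2 fold change 0.64 ± 0.13, adjusted p = 0.00019).

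The adhesion and transport members were lower or not called. Ceacam1, which serves as the receptor of mouse hepatitis virus, had 168 to 235 CPM in B6 and 219 to 286 CPM in strain-129 (log2 fold change -0.29 ± 0.104, adjusted p = 0.0342), a call lost without any of libraries 6, 7 or 8 of B6 or any of libraries 1 or 2 of strain-129 (adjusted p = 0.0523 to 0.0792). Ceacam2 had 0.041 to 0.927 CPM in B6 and 1.27 to 2.81 CPM in strain-129 (log2 fold change -2.43 ± 0.34, adjusted p = 8.86e-08). Abcb1b, a drug-exporting P-glycoprotein, had 0.526 to 1.51 CPM in B6 and 7.599 to 17.2 CPM in strain-129 (log2 fold change -3.49 ± 0.45, adjusted p = 1.7e-08), and its neighbour Abcb1a had 3.84 to 11.2 CPM in B6 and 1.64 to 15.8 CPM in strain-129 (log2 fold change 0.08 ± 0.59, adjusted p = 0.944), with a call in libraries numbered 6 to 9 alone (log2 fold change 1.34 ± 0.31, adjusted p = 0.00613). Cd1d2, a copy of the lipid-presenting CD1d that is known to be defective in B6, had 0 to 0.329 CPM in B6 and 0.457 to 0.881 CPM in strain-129 (log2 fold change -2.72 ± 0.46, adjusted p = 7.51e-06). Ahr, the aryl hydrocarbon receptor, had 38.6 to 65.3 CPM in B6 and 26.7 to 53.5 CPM in strain-129 (log2 fold change 0.39 ± 0.202, adjusted p = 0.17) and was called with the B6 and strain-129 libraries alone (adjusted p = 0.0465) and with the replicate block (adjusted p = 0.0194). Lepr, Dysf, Pctp, Nnmt, Hao1, Fmo5, B4galnt1, Disc1 and Ide were among the 14 not called. Of these, Hao1 was called lower with the B6 and strain-129 libraries alone (adjusted p = 0.0172), with Xist as a covariate (adjusted p = 0.0258), with the replicate block (adjusted p = 0.00255), without library 7 of B6 (adjusted p = 0.0414) and in each class of libraries (adjusted p = 3.21e-05 in libraries numbered 1 to 4 and 0.0384 in those numbered 6 to 9). Pctp was called higher with the B6 and strain-129 libraries alone (adjusted p = 0.0177), with Xist as a covariate (adjusted p = 0.0455), with the block (adjusted p = 0.0307) and in libraries numbered 6 to 9 (adjusted p = 3.19e-05).

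Of 20 immediate early and heat shock genes 6 were higher, 30% against 12.9% over all genes. The count was 3 without library 2 or without library 4 of B6, 1 in libraries numbered 1 to 4 and 3 in those numbered 6 to 9. Of 24 cell cycle genes 4 were higher, 16.7% against 12.9% over all genes. The count was 7 with the B6 and strain-129 libraries alone and 2 in libraries numbered 1 to 4, fits in which 22 were tested. Nuclear-encoded respiratory chain genes were lower in 5 of 43, 11.6% against 9.58% over all genes. That count ran between 8 and 11 without library 2, 6, 7 or 8 of B6 or library 2 of strain-129. It was 13 in libraries numbered 1 to 4 and 2 in those numbered 6 to 9. Genes of glycolysis, gluconeogenesis and glycogen were higher in 3 of 31 (9.68%) and lower in 2 (6.45%). Those of the urea cycle and amino acid breakdown were higher in 1 of 31 and lower in 1 (3.23%). These shares lay under the 12.9% higher and 9.58% lower over all genes. In libraries numbered 6 to 9, 6 of the glycolysis list were higher and 4 of the urea cycle list lower, and in those numbered 1 to 4, 5 of the glycolysis list were lower. Bile acid genes were lower in 2 of 25, 8% against 9.58% over all genes (4 with a replicate block), and higher in none. None was higher at an unadjusted p under 0.05, by DESeq2 or by limma. Within the classes, where 24 were tested, 3 were lower and 1 higher in libraries numbered 1 to 4, and 4 lower and 3 higher in those numbered 6 to 9.

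Lists of sex-biased liver genes were read within classes, since pooling mixes them. In libraries numbered 6 to 9, male-biased genes summed to 9277 to 23669.5 CPM in B6 and 19698 to 28108 CPM in strain-129, with overlap. In libraries numbered 1 to 4 they summed to 1461 to 2446 CPM in B6 and 929 to 1839 CPM in strain-129. In libraries numbered 6 to 9, female-biased genes summed to 134 to 194.5 CPM in B6 and 28.3 to 54.99 CPM in strain-129, with no overlap. In libraries numbered 1 to 4 they summed to 4289 to 8765 CPM in B6 and 3033 to 5967 CPM in strain-129, with overlap. Pooled, 4 of 25 male-biased genes were higher and 4 lower, 16% each against 12.9% and 9.58% over all genes. Of 22 female-biased genes 3 were higher, 13.6% against 12.9%. With a replicate block 8 male-biased genes were lower and 10 female-biased genes were higher. Within the classes 23 male-biased and 22 female-biased genes were tested. In libraries numbered 6 to 9, 9 male-biased genes were lower and 5 higher, and 8 female-biased genes were higher and 0 lower. In those numbered 1 to 4, 8 male-biased genes were higher and 6 lower, and 6 female-biased genes were higher and 2 lower.

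The difference between B6 and strain-129 itself differed between the classes for 69 of 14490 genes (0.476%), against 1583 at an unadjusted p under 0.05. The signed log2 fold change, B6 minus strain-129, was higher in libraries numbered 6 to 9 for 47 of the 69. For 22 it was higher in those numbered 1 to 4. These counts follow the sign, not the size of the gap between strains. The classes had opposite signs for 35. The 6 genes with the smallest p were Tgfbr2, Ntrk2, Olig1, Fam13b, Mup21 and Pparg. Tgfbr2, the TGF-beta receptor, had 38.8 to 45.01 CPM in B6 and 13.6 to 15.1 CPM in strain-129 in libraries numbered 6 to 9, and 23.7 to 26.8 CPM in B6 and 16.5 to 19.7 CPM in strain-129 in those numbered 1 to 4 (adjusted p = 0.00115). Ntrk2, the neurotrophin receptor TrkB, had 10.1 to 14.9 CPM in B6 and 56.6 to 87.00 CPM in strain-129 in libraries numbered 6 to 9, and 43.9 to 59.5 CPM in B6 and 38.2 to 69.9 CPM in strain-129 in those numbered 1 to 4 (adjusted p = 0.00115). Olig1, a transcription factor of oligodendrocytes, had 10.2 to 12.9 CPM in B6 and 0.176 to 0.555 CPM in strain-129 in libraries numbered 6 to 9, and 0.876 to 1.802 CPM in B6 and 0.546 to 0.938 CPM in strain-129 in those numbered 1 to 4 (adjusted p = 0.00115). Fam13b had 13.4 to 15.97 CPM in B6 and 24.3 to 25.5 CPM in strain-129 in libraries numbered 6 to 9, and 25.3 to 30.3 CPM in B6 and 22.03 to 26.8 CPM in strain-129 in those numbered 1 to 4 (adjusted p = 0.00193). In each of these 4 genes the 3 B6 libraries numbered 6 to 8 lay outside the range of the other 12.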

How the data were processed

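Liver RNA was sequenced from polyadenylated libraries, per the labels' protocols. The authors deposited estimated counts per gene, which are expected counts and not whole in 21.0% of values, a table of variance-stabilised values on a log2 scale, and gene positions. Genome build GRCm38 and DESeq2 are named in the submitters' processing notes, while the aligner, counter and strand setting are not given. Each library was matched to its strain and number by its column name, 1 column that matched no sample was not used, and B6 number 5 was not analysed. The nearest pair of libraries within a strain still differed by a chi-square of 23.0 per gene, so no column was a copy of another. That value does not show separate mice. Each library was counted as a replicate.

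Counts were rounded, normalised with TMM and tested with the edgeR 4.0.16 quasi-likelihood F test (R 4.3.3, two-sided) in 1 fit over the 60 libraries of all 8 strains, after a filter on low counts by strain. The contrast was B6 minus strain-129, with Benjamini-Hochberg adjustment over all 16165 genes and a threshold of 0.05. CPM values use TMM-scaled library sizes, and counting error alone is no measure of the spread between libraries. Shared-exon, overlapping and near-identical genes can exchange reads, and GRCm38 is a B6 genome, so that strain-129 reads may be lost where the sequences differ, which was not tested. On simulated counts with known changes of 200 genes the same fit recovered 81 of 100 changed by 1 on the log2 scale and 98 of 100 changed by 2, and 14 of its 193 calls were of unchanged genes. The changed genes had a mean of at least 1 CPM, and the simulated strains held no Xist classes. These rates do not carry over to lower genes or to genes that differ between the classes.

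The strains and gene lists were chosen with earlier results of these data known, so the list counts are descriptions and no set test was run. The text names the 12 called protein-coding genes with the largest fold in each direction at a mean of at least 5 CPM, the 10 with the largest difference of mean CPM, up to 6 called members of each list by smallest p, the known strain-variable genes, the genes present in 1 strain and the 5 bins with the highest share called. Predicted genes are not named. Genes outside that rule are marked where they appear. Of the selected genes, some are given by name or count alone, and some are not reported here.

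Alternatives were DESeq2 (1.42.0) size factors and its Wald test, no filter, B6 and strain-129 libraries alone, limma (3.58.1) on the variance-stabilised values, Xist as a covariate, a replicate block, and leaving out each library in turn. The block used the numbers in the titles. Same-numbered B6 and strain-129 libraries deviated from their group means together in all 7 pairs (correlation over genes 0.126 to 0.380), the criterion for pairing being 0.1 in each. Other pairs of the same number class correlated as well (0.180 to 0.463) and 2 of 7 libraries correlated best with their own number, so the numbers track the Xist class. Fits within the classes, and the test of their difference over 14490 genes in a 4-group model, were added after the classes were seen.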

Additional observations from a re-analysis of the deposited data

Results flagged for a closer look

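Within groups of 7 or 8 libraries, a single library stood apart from the others of its strain (Dixon's criterion) in 20 of 268 gene groups, 7.46%. The criterion's rate of about 1 in 20 is for normal values in a uniform group. These groups mix both Xist classes, and some hold 0 in all but 1 library. The share therefore cannot be set against that rate. In strain-129, library 1 was high for Gvin1 (1.06 CPM), library 2 for Cyp2b13 (0.725 CPM) and Hc (1381 CPM), library 4 for Pydc4 (0.0306 CPM, 1 read), library 6 for Serpina1e (20.6 CPM), Ren1 (29.4 CPM) and Ahcy (678 CPM), and library 7 for Trim5 (0.0292 CPM, 1 read), Irgm2 (70.4 CPM) and Col1a1 (17.3 CPM). In B6, library 7 was high for Mup15 (875 CPM), Mup12 (63.1 CPM), Mup1 (218 CPM) and Mup9 (86.7 CPM) and low for H2-T10 (1.69 CPM). Library 2 of B6 was high for Rnaset2a (0.568 CPM), Rgs5 (80.1 CPM) and Igfbp3 (28.5 CPM), and library 6 was high for Tdg-ps (0.0250 CPM, 1 read) and low for Apoh (1259 CPM). The 4 Mup genes named for library 7 of B6 are near-identical copies, so their values are not independent.

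For 14 of the genes whose levels are given, the difference between B6 and strain-129 differed between the classes of libraries by the test of the difference itself. Each value is the log2 fold change in libraries numbered 1 to 4 minus that in libraries numbered 6 to 9. It was below 0 for Tlr12 (-2.02), H2-Q6 (-1.14), Fdft1 (-1.27), Acat2 (-1.48), Pparg (-2.26), Cidec (-4.75), Pltp (-1.86), Tgfbr2 (-1.07) and Olig1 (-3.86). It was above 0 for Cyp2b13 (8.41), Asic5 (1.62), Ntrk2 (2.47), Fam13b (1.01) and Mup21 (4.28). Pctp, named above without its levels, was also called by this test (-1.14, adjusted p = 0.0459). The adjusted p-values were 0.0352 for Tlr12, 0.0471 for H2-Q6, 0.0119 for Acat2 and 0.0136 for Cidec, and those of the other genes stand beside their values in the results. The classes coincide with the Xist level, and sex and any other property that goes with the library numbers cannot be told apart.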

How the results depend on the processing

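Of 16165 genes, edgeR called 3638. The count was 3632 with DESeq2 size factors, 3695 without the filter, 4028 with the B6 and strain-129 libraries alone, 3699 with limma on variance-stabilised values, 3895 with DESeq2, 4068 with Xist as a covariate and 3784 with the replicate block, of which 2908 were shared with the 3638. Leaving out 1 library gave 3229 to 3783 calls, and 2624 genes were called in all 15 such fits. In these fits, genes called higher ranged between 1826 and 2118, genes called lower between 1402 and 1723, calls with an absolute log2 fold change of at least 1 between 1346 and 1498 (1463 with all libraries), and genes present in a single strain between 9 and 10. Calls with an absolute log2 fold change of at least 1 were 495 on the variance-stabilised values, a compressed scale. With limits of 2 and 0.05 CPM, 1 gene was present in a single strain, against 9. Within libraries numbered 1 to 4, 3058 genes were called, and within those numbered 6 to 9, 3364. There, Pparg (-0.021) had the opposite sign in libraries numbered 1 to 4, as did Mup21 (1.602, against -2.81 pooled); the cause was not tested. The pooled calls that were lost with the replicate block are given beside their genes, and among the other genes named the block ended none. Depth limits low genes: where a strain held at most 3 reads in all, only levels are given.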
